A study of Mus musculus with 31 samples.

Results

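Nodal is a secreted ligand of the transforming growth factor beta family, and the genes described here are the parts of its signalling pathway that the arrays measured. They comprised the ligand genes Nodal and Gdf3, the coreceptor gene Tdgf1, the inhibitor genes Lefty1 and Cer1, the receptor genes Acvr1b, Acvr2a and Acvr2b, the transducer gene Smad2 and the corepressor gene Skil. The members were chosen by name, with earlier results of these data known, and each was read from the probe sets annotated with its symbol alone. All 10 were measured, by 13 of the 12422 probe sets that are not controls, and they are 10 of the 8251 genes that could be named in this way.

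The study profiled mouse embryonic stem (ES) cells while they differentiated as embryoid bodies (EBs), the cell aggregates that form when ES cells are kept off an adhesive surface. All 31 Affymetrix MgU74Av2 arrays came from B6 mouse ES cells. Per the methods, these were grown on mouse embryonic feeders with 15% FCS and the self-renewal factor LIF. The feeders were then depleted, but the published methods do not mention cells sorted by flow cytometry. The day-0 cells formed a pair of groups, 6 arrays of cells passaged on gelatin (gelatin ES cells) and 6 arrays of cells sorted by flow cytometry on an Oct4 GFP reporter (sorted ES cells). EBs were made by seeding gelatin ES cells into nonadherent dishes without LIF, which gave 7 arrays on day 4 and 6 each on day 8 and day 14. The labels name no further genotype, and they do not state whether arrays of 1 group came from separate cultures, although the methods call them biological samples. The p-values therefore measure the spread between these samples, which may be partly technical.

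Nodal binds activin receptors made of a type I chain (ALK4, the product of Acvr1b) and a type II chain (from Acvr2a or Acvr2b), and it needs the membrane-anchored coreceptor Cripto, encoded by Tdgf1. The receptors phosphorylate SMAD2 and SMAD3, which enter the nucleus with SMAD4 and act with FOXH1 on target genes, among them Nodal itself and the Lefty genes, whose products block Nodal in a feedback loop. In the mouse embryo the pathway maintains the epiblast, patterns the primitive streak and specifies endoderm, and Cer1 and Lefty1 mark the anterior visceral endoderm.

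Values are signals on the linear scale that the authors deposited, and a difference is between group means of log2 signal, given ± its standard error. The test was a linear model over all arrays and probe sets (limma), with Benjamini-Hochberg adjusted p-values over all 12422 probe sets and a threshold of 0.05. Rose and fell name a difference that passed this test against the group stated. Levels of different genes cannot be set against each other, because probe sets differ in how brightly they hybridize.

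Several arrays stood apart from the rest of their group over all probe sets. Day 4 replicates 6 and 7 correlated with the other day 4 arrays between 0.947 and 0.978, against 0.987 or more within either subset. With the mean of the day 8 arrays they correlated at 0.980 and 0.986. With the mean of all other arrays of their own group they correlated less, at 0.971 and 0.982. Day 8 replicates 2 and 4 correlated with the other day 8 arrays between 0.972 and 0.989, against 0.986 to 0.996 within either subset. Replicate 2 correlated at 0.990 with the day 14 mean and at 0.985 with the mean of all other day 8 arrays. For replicate 4 these values were nearly equal, at 0.9888 and 0.9895. Gelatin replicates 3, 4 and 6 correlated with the other gelatin arrays between 0.986 and 0.992, against 0.991 to 0.997 within either subset. The ranges thus overlapped at day 8 and on gelatin, unlike at day 4. Gelatin replicates 3, 4 and 6 had a Gapdh 3' to 5' signal ratio of 6.31 to 6.85, against 3.48 to 4.04 in the other gelatin arrays. In day 4 replicates 6 and 7 it was 2.24 to 2.34, against 2.77 to 4.40 in the other day 4 arrays. In day 8 replicates 2 and 4 it was 2.46 to 2.61, against 2.11 to 2.29 in the other day 8 arrays. This ratio, a measure of RNA integrity, was 2.76 to 3.09 in sorted ES cells, 2.24 to 4.40 at day 4, 2.11 to 2.61 at day 8 and 2.06 to 2.68 at day 14, so every gelatin array lay above every sorted, day 8 and day 14 array. The part of this ratio in the comparisons with gelatin or in the splits within groups was not tested. The summed signal of pluripotency markers (18 of 18 listed were measured) was 76912 to 88869 in sorted ES cells, 40029 to 46817 on gelatin, 42563 to 73288 at day 4, 33200 to 68859 at day 8 and 17411 to 31231 at day 14. The sum of visceral endoderm markers (17 of 19) was 6689 to 7212 in sorted ES cells, 7817 to 8611 on gelatin, 29326 to 50603 at day 8 and 49506 to 59054 at day 14. At day 4 that sum was 6461 to 7335 in replicates 1 to 5 but 14468 and 17672 in replicates 6 and 7. Primitive streak and early mesoderm markers (12 of 14) summed to 7737 to 8165 in sorted ES cells, 7571 to 8341 on gelatin and 7048 to 8377 at day 4. Their sum was 8182 to 10472 at day 8 and 10747 to 12050.0 at day 14. The sum of fibroblast and feeder markers (13 of 14) was 15248 to 21606 in sorted ES cells, 30643 to 48195 on gelatin, 12165 to 21058 at day 4, 14727 to 28613 at day 8 and 34393 to 52718 at day 14. No listed marker was at 0 on any array. The sorting marker followed its label: Pou5f1, which encodes Oct4, had a mean signal of 6419 ± 523 (SD, n = 6) in sorted ES cells, 4719 ± 584 (n = 6) on gelatin and 1062 ± 307 (n = 6) at day 14. The pluripotency list did not order by day. On gelatin 14 of the 18 were lower than in sorted ES cells, beside 18.4% of all genes. In the limma test 0 were higher (1 at an unadjusted p under 0.05), beside 23.3%. At day 4, 8 were higher and 1 lower than on gelatin, beside 8.33% and 17.8%. At day 8, 7 were higher and 3 lower than on gelatin, beside 18.7% and 26.2%. In bulk samples of this kind, fewer cells of a type and less RNA per cell cannot be told apart.

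**Figure D1:**
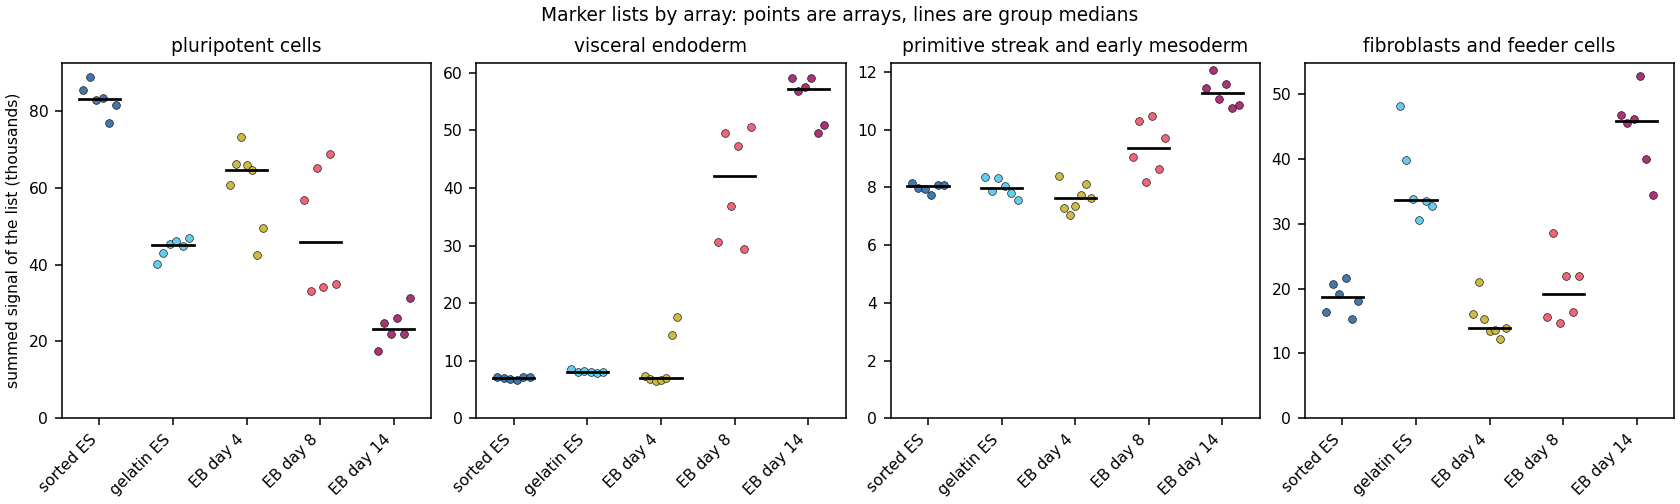
Summed linear signal of 4 marker lists (vertical axes from 0) in each array, by group; points are arrays and lines are group medians. Day 4 replicates 6 and 7 are the 2 day 4 arrays above the rest for visceral endoderm, at 14468 and 17672, and the gelatin arrays lie above all sorted arrays for fibroblast and feeder markers.

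The promoters of the ligand gene Nodal, the coreceptor gene Tdgf1 and the inhibitor gene Cer1 are shown because Nodal gives the pathway its name, Tdgf1 had the largest fall of the 10 genes by day 14 and Cer1 the largest rise. Each is the stretch of 250 bases that ends at the base before the RefSeq start site, 5′ to 3′ on the gene's own strand, on build GRCm38.p6. Capitals mark matches, on either strand, to the SMAD-binding letters CAGAC, the FOXH1-like letters TGTNNATT, the octamer ATGCAAAT or the TATA box letters TATAAA, and no marked stretches overlap. Nodal lies on the plus strand (chr10:61417722-61417971), Tdgf1 on the minus strand (chr9:110946159-110946408) and Cer1 on the minus strand (chr4:82885152-82885401).
Nodal: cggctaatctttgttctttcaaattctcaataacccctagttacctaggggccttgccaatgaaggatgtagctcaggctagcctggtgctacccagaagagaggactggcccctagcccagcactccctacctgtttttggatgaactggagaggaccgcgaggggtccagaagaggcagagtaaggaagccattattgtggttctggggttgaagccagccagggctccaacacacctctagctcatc
Tdgf1: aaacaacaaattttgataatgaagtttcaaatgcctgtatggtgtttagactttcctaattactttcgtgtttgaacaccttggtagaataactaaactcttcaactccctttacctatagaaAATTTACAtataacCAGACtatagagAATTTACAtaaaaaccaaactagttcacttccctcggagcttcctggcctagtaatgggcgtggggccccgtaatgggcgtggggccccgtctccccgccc
Cer1: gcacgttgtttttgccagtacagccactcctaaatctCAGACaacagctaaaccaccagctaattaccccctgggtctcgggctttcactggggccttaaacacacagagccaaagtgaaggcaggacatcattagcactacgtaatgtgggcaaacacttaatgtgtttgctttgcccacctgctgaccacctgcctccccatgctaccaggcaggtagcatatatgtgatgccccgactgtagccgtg
The Nodal window held none of the 4 strings. The Tdgf1 window held CAGAC once, at bases -113 to -109 from the start site, and TGTNNATT at -127 to -120 and at -101 to -94, both on the opposite strand, so that the 3 matches lay within a short stretch. The Cer1 window held CAGAC once, at -213 to -209. Among the 32851 promoter windows of the same length in the table, 42.2% held CAGAC, 10.9% TGTNNATT, 1.6% ATGCAAAT and 12.4% TATAAA. A match is a description of the letters, not a site, and no match says only that these letters are not in this window. The table had windows for 6 of the 10 members. Those of Acvr2a and Acvr2b each held CAGAC once, on the opposite strand, and that of Acvr1b held none of the strings.

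Nodal, Gdf3, Tdgf1 and Lefty1 ended lowest at day 14, and Cer1 ended highest. Against gelatin ES cells, from which the EBs were seeded, day 14 EBs had 3.56-fold less Nodal signal, 4.22-fold less Gdf3, 5.23-fold less Tdgf1 and 2.21-fold less Lefty1, while Cer1 was 4.04-fold higher. In that comparison the receptor genes differed by less than any of these 5. The plot of each array's signal shows these courses.

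**Figure D2:**
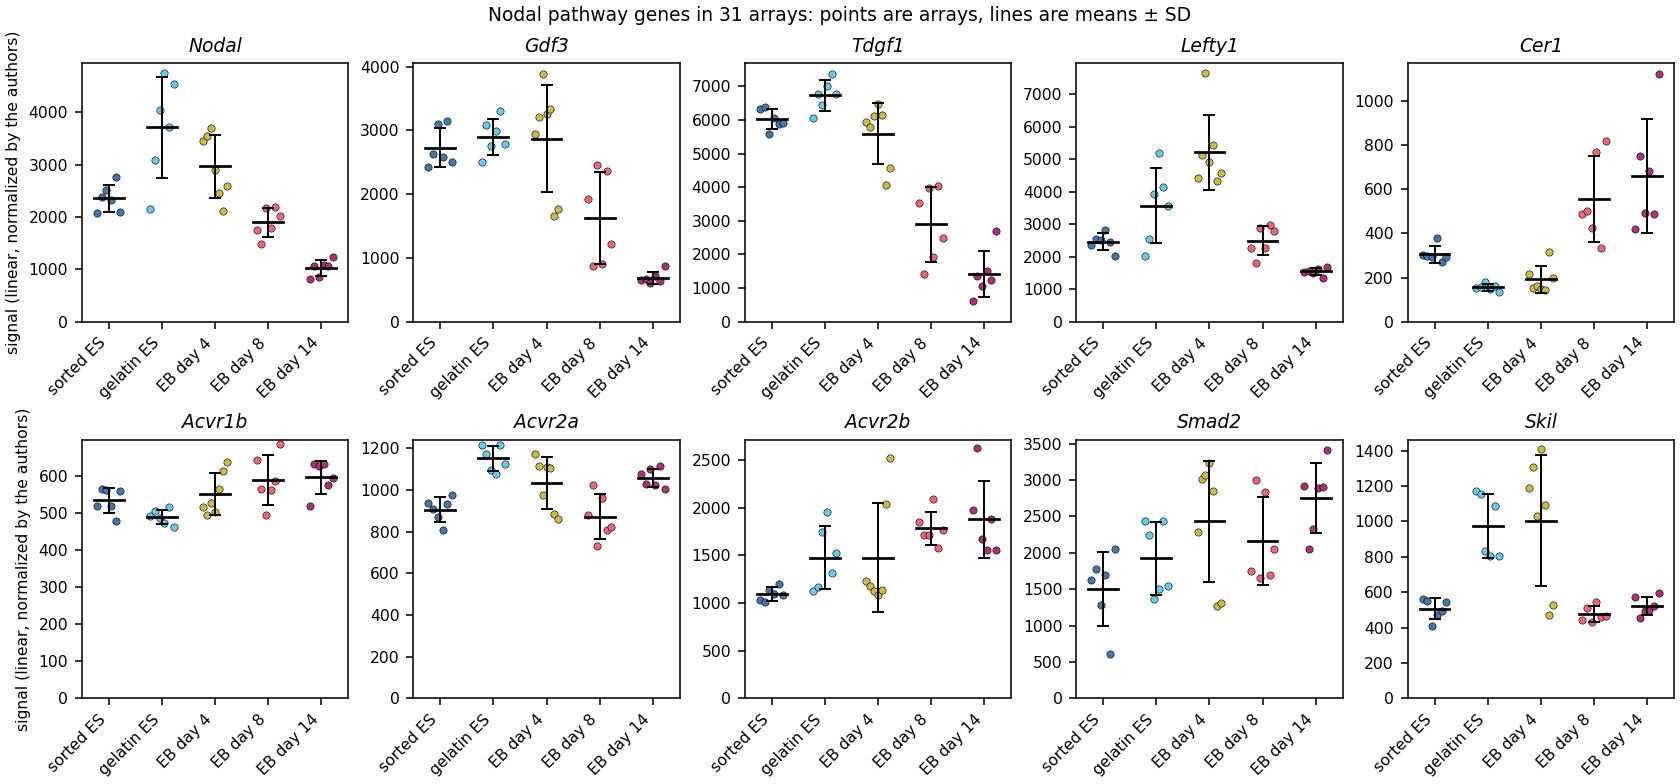
Linear signal of the 10 genes (vertical axes from 0, each gene on its own scale) in all 31 arrays by group; points are arrays in replicate order and black lines with bars are means ± SD. Nodal, Gdf3, Tdgf1 and Lefty1 are lowest at day 14, Cer1 is highest at day 8 and day 14, and at day 4 replicates 6 and 7 (the last 2 points) split from the others for Gdf3, Tdgf1, Acvr2b, Smad2 and Skil.

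Nodal, the ligand that gives the pathway its name, had lowest, median and highest signals of 2069.6, 2347 and 2759 in sorted ES cells. On gelatin these were 2150.5, 3885 and 4745. The gelatin arrays were the most spread of any group, with replicate 1 among the sorted values and the other 5 above all of them. Day 4 arrays had 2124, 2906 and 3709, those of day 8 1480.4, 1903 and 2191 and those of day 14 819, 1070.3 and 1228, so every day 14 array lay below every array of the other groups. On gelatin Nodal was higher than in sorted ES cells by 0.62 ± 0.16 (adjusted p = 0.00292). That call was lost when gelatin replicates 3, 4 and 6 were left out, with 0.31 (adjusted p = 0.19). These 3 arrays held 4042 to 4745, without overlap with the other gelatin arrays, and gelatin replicate 1, lowest for Nodal, had the highest fibroblast and feeder sum (48195). The part of either in the difference was not tested. Day 4 did not pass against gelatin, -0.30 ± 0.15 (adjusted p = 0.161), although it did, at -0.45 (adjusted p = 0.0184), without gelatin replicate 1. It did not pass against sorted ES cells either, 0.31 ± 0.15 (adjusted p = 0.144), and it did without day 4 replicates 6 and 7, 0.44 (adjusted p = 0.0387). Against sorted ES cells Nodal was at -0.32 ± 0.16 (adjusted p = 0.129) at day 8 and -1.22 ± 0.16 (adjusted p = 4.36e-07) at day 14, and against gelatin at -0.93 ± 0.16 (adjusted p = 3.06e-05) and -1.83 ± 0.16 (adjusted p = 3.39e-10). From day 4 to day 8 Nodal fell by 0.63 ± 0.15 (adjusted p = 0.00333), and from day 8 to day 14 by 0.90 ± 0.16 (adjusted p = 0.000114). In the order of the levels, gelatin, day 4, sorted and day 8 each did not pass against the next, and day 14 was below day 8.

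Gdf3 encodes a second ligand of the family that, like Nodal, uses Cripto and activin receptors. Its signals in sorted ES cells were 2422, 2604 and 3144 (lowest, median and highest) and on gelatin 2497, 2884 and 3299, and these groups overlapped. At day 4 they were 1658, 3215 and 3889. The low end of day 4 was made by replicates 6 and 7, at 1658 and 1764, below all other day 4 arrays. At day 8 the signals were 872, 1570.3 and 2461 and at day 14 605, 658 and 866, so day 14 lay below all other groups. Gdf3 on gelatin differed from sorted ES cells by 0.09 ± 0.22 (adjusted p = 0.805), and day 4 EBs from gelatin by -0.07 ± 0.22 (adjusted p = 0.873), neither of which passed. It fell from day 4 to day 8, -0.89 ± 0.22 (adjusted p = 0.00323), and from day 8 to day 14, -1.12 ± 0.22 (adjusted p = 0.000414). The day 8 arrays were divided: replicates 2 and 4 were at 872 and 904 and the others at 1225 to 2461. Without these 2 arrays, the difference of day 8 from gelatin moved from -0.96 ± 0.22 (adjusted p = 0.00101) to -0.59 (adjusted p = 0.0197). The difference of day 8 from day 4 without them was -0.51 (adjusted p = 0.0589) and that from sorted ES cells -0.50 (adjusted p = 0.063), and both calls were lost. Day 14 was at -1.99 ± 0.22 (adjusted p = 3.42e-08) against sorted ES cells and at -2.08 ± 0.22 (adjusted p = 1.61e-08) against gelatin. A second Gdf3 probe set, 161144_r_at, whose suffix marks probes chosen under relaxed rules, stayed at 77.7 to 153 on all arrays and passed in none of the comparisons.

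Tdgf1, the gene of the coreceptor Cripto, fell in the same steps as Gdf3. In sorted ES cells its lowest, median and highest signals were 5591, 5979 and 6395, and on gelatin 6047, 6776 and 7353. At day 4 it had 4073, 5929 and 6486, with replicates 6 and 7 at 4073 and 4558 and the other 5 arrays within the range of the day-0 groups. Day 8 signals were 1429, 3006 and 4027, all below every day 4 array. Those of day 14 were 623, 1295 and 2686, overlapping day 8 through replicates 4 and 6. Day 4 did not pass against either day-0 group, with -0.13 ± 0.23 (adjusted p = 0.767) against sorted and -0.28 ± 0.23 (adjusted p = 0.413) against gelatin. Tdgf1 then fell in both steps, by 1.03 ± 0.23 (adjusted p = 0.00153) to day 8 and by 1.07 ± 0.24 (adjusted p = 0.00126) to day 14. Without day 8 replicates 2 and 4 the first step was -0.68 (adjusted p = 0.0273). The whole difference of day 14 from sorted ES cells was -2.23 ± 0.24 (adjusted p = 1.55e-08) and from gelatin -2.39 ± 0.24 (adjusted p = 4.52e-09), the largest of the 10 genes in either comparison. Its single probe set, 93002_r_at, was also chosen under relaxed rules, and RefSeq lists pseudogene copies of Tdgf1. Whether its probes match them was not tested. Within day 4 and day 8 the summed pluripotency markers were lower in the arrays in which Gdf3 and Tdgf1 were low: 42563 and 49642 in day 4 replicates 6 and 7 against 60774 to 73288 in the others, and 33200 and 34156 in day 8 replicates 2 and 4 against 56816 to 68859 in replicates 1, 3 and 5. Day 8 replicate 6, at 35048, was low as well. The gelatin sums (40029 to 46817) were all below that of day 4 replicate 7 and above those of day 8 replicates 2, 4 and 6. On gelatin Gdf3 (2497 to 3299) and Tdgf1 (6047 to 7353) did not pass against sorted ES cells. Neither gene is on the pluripotency list. The part of these sums in the falls was not tested.

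With all arrays Lefty1, a secreted inhibitor of Nodal and a target of the pathway, was the only one of the 10 genes whose day 4 level passed as higher against both day-0 groups. Skil passed as higher against sorted ES cells, and also against gelatin once the day 4 arrays that stood apart were left out. The Lefty1 call against gelatin was lost with only the 2 groups in the fit. Lefty1 signals in sorted ES cells were 2032, 2472 and 2831 (lowest, median and highest). On gelatin they were 2006, 3735 and 5199 and at day 4 4312, 4908 and 7635. Every day 4 array lay above every sorted array, while gelatin replicate 4 reached into the day 4 range. Day 8, at 1796, 2521 and 2962, overlapped the sorted arrays, and day 14, at 1331, 1553 and 1695, lay below all other groups. At day 4 Lefty1 was higher than in sorted ES cells by 1.07 ± 0.16 (adjusted p = 2.22e-05) and than on gelatin by 0.59 ± 0.16 (adjusted p = 0.00833), and the second value was 0.89 (adjusted p = 0.000958) without gelatin replicates 3, 4 and 6. It then fell to day 8, -1.06 ± 0.16 (adjusted p = 2.31e-05), and to day 14, -0.68 ± 0.17 (adjusted p = 0.00328). The difference of gelatin from sorted ES cells was 0.48 ± 0.17 (adjusted p = 0.0261). This call was lost without gelatin replicate 3, 4 or 5 or sorted replicate 6, where the difference ran from 0.35 to 0.43, and without gelatin replicates 3, 4 and 6 together it was 0.18 (adjusted p = 0.508). The fall from gelatin to day 8, -0.47 ± 0.17 (adjusted p = 0.0268), was likewise lost without gelatin replicate 3, 4 or 5 or day 8 replicate 1 or 2, at -0.34 to -0.44. It was -0.17 (adjusted p = 0.521) without gelatin replicates 3, 4 and 6 and -0.33 (adjusted p = 0.157) without day 8 replicates 2 and 4.

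A second Lefty1 probe set, 162480_f_at, carries a suffix for probes shared by a gene family, and the related gene Lefty2 was not measured here by a probe set with 1 symbol. Its course had the same peak, with 664, 874 and 1076 in sorted ES cells, 755, 1223 and 1596 on gelatin and 1212, 1539 and 1889 at day 4. It fell further afterwards, to 309, 573 and 682 at day 8 and 255, 336 and 404 at day 14. The probe sets parted at day 8 against sorted ES cells, where 102345_at differed by 0.01 ± 0.17 (adjusted p = 1) and 162480_f_at by -0.80 ± 0.19 (adjusted p = 0.00134). Without day 8 replicates 2 and 4 the second value was -0.49 (adjusted p = 0.0275). They also parted at day 4 against gelatin, where 162480_f_at did not pass, 0.36 ± 0.18 (adjusted p = 0.157). On gelatin against sorted ES cells, where 102345_at passed, 162480_f_at did not, 0.44 ± 0.19 (adjusted p = 0.0649). At day 4 both passed as higher against sorted ES cells, and from day 4 to day 8 both fell.

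Cer1, a secreted protein that binds Nodal and is made by anterior visceral endoderm, moved the other way. It was dim on gelatin, with lowest, median and highest signals of 133, 154 and 178. In sorted ES cells it had 269, 294 and 381, above every gelatin array. The day 4 signals, 145, 163 and 313, overlapped both. Replicate 6 at day 4 was the brightest of that group, at 313, with replicates 1 and 7 next at 215 and 199.9. At day 8 Cer1 had 335, 496 and 819.6 and at day 14 420.3, 587 and 1123, all above the gelatin and day 4 arrays. It was lower on gelatin than in sorted ES cells, -0.98 ± 0.22 (adjusted p = 0.000699), and at day 4 than in sorted ES cells, -0.72 ± 0.21 (adjusted p = 0.0128). With a floor at the 25th percentile of all values in place of the 5th, neither passed, at -0.44 (adjusted p = 0.0805) and -0.37 (adjusted p = 0.177). It rose from day 4 to day 8, 1.52 ± 0.21 (adjusted p = 5.45e-06), and did not pass from day 8 to day 14, 0.24 ± 0.22 (adjusted p = 0.445). Against sorted ES cells it was higher by 0.80 ± 0.22 (adjusted p = 0.00486) at day 8 and by 1.04 ± 0.22 (adjusted p = 0.000255) at day 14. Against gelatin the same days were at 1.78 ± 0.22 (adjusted p = 2.2e-07) and 2.01 ± 0.22 (adjusted p = 1.62e-08). The visceral endoderm sum was also higher at day 8 and day 14. Unlike Cer1, it was lower in sorted ES cells (6689 to 7212) than on gelatin (7817 to 8611). At day 8 Cer1 was brightest in replicates 6 and 4 (819.6 and 771), which had sums of 50603 and 47361. Day 8 replicate 2 had a sum of 49470.3 and a Cer1 signal of 503. Within day 4, replicates 7, 6 and 1 had the highest sums (17672, 14468 and 7335). The same arrays had the most Cer1 (199.9, 313 and 215), in another order. At day 14 Cer1 was highest in replicate 6 (1123, sum 50953) and lowest in replicate 1 (420.3, sum 59023). The part of visceral endoderm in the rise was not tested.

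**Figure D3:**
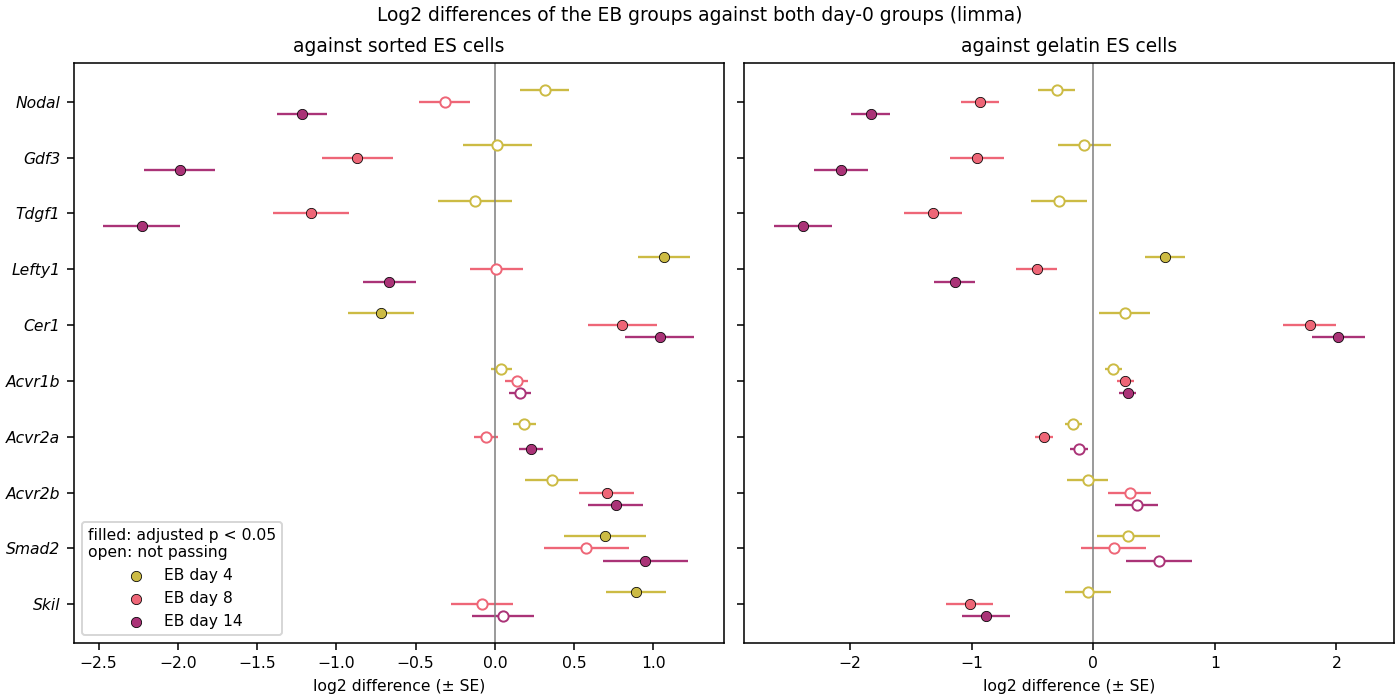
Log2 difference ± SE (horizontal axes) of the 10 genes at day 4, day 8 and day 14 against sorted ES cells (left) and gelatin ES cells (right); filled points passed at an adjusted p under 0.05 and open points did not. Tdgf1 at day 14 is farthest left in both panels, at -2.23 and -2.39, the points farthest right are Lefty1 at day 4 in the left panel (1.07) and Cer1 at day 14 in the right panel (2.01), and Skil passes at day 4 only in the left panel.

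Which receptor genes passed depended on the day-0 group. Acvr1b, the type I receptor, had lowest, median and highest signals of 479, 539.9 and 565 in sorted ES cells and 462, 489.6 and 517 on gelatin. In EBs they were 493, 528 and 637 on day 4, 495, 575 and 686 on day 8 and 519, 611 and 631 on day 14. These ranges overlapped for all pairs of groups but gelatin and day 14. Acvr1b passed against gelatin alone, with 0.26 ± 0.07 (adjusted p = 0.00368) at day 8 and 0.28 ± 0.07 (adjusted p = 0.00162) at day 14. Without gelatin replicates 3, 4 and 6 the day 8 value was 0.22 (adjusted p = 0.0663). No neighbours in the order of its levels differed beyond their spread.

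Acvr2a, a type II receptor, was measured by a pair of probe sets that did not run in parallel. The brighter one, 98841_at, had 807, 919 and 978 in sorted ES cells (lowest, median and highest) and 1078, 1150.1 and 1217 on gelatin. In EBs they were 859, 1108 and 1174 on day 4, 733, 852 and 1024 on day 8 and 1006, 1052 and 1113 on day 14. Gelatin lay above sorted without overlap, 0.35 ± 0.08 (adjusted p = 0.000497), and day 8 lay below gelatin without overlap, -0.41 ± 0.08 (adjusted p = 7.77e-05). Every day 14 array lay above every sorted one. From day 4 to day 8 it fell, -0.24 ± 0.07 (adjusted p = 0.0142), and it then rose from day 8 to day 14 by 0.29 ± 0.08 (adjusted p = 0.00469). Day 4 against sorted ES cells, 0.18 ± 0.07 (adjusted p = 0.0634), passed without day 4 replicates 6 and 7, 0.28 (adjusted p = 0.00235), and without either of them. At day 14 it was higher than in sorted ES cells by 0.23 ± 0.08 (adjusted p = 0.0135), but not after quantile normalization, 0.13 (adjusted p = 0.153), or median centring, 0.12 (adjusted p = 0.162). Median centring moved the median of all probe sets in that comparison to -0.11, from 0.00. The dimmer one, 103500_at, had 210.0, 276 and 314 in sorted ES cells and 438, 522 and 573 at day 14, without overlap and with a difference of 0.93 ± 0.15 (adjusted p = 6.94e-06). It did not pass at day 8 against gelatin, 0.07 ± 0.15 (adjusted p = 0.745), and it passed as higher at day 14 than on gelatin, 0.61 ± 0.15 (adjusted p = 0.00113), where 98841_at did not, -0.12 ± 0.08 (adjusted p = 0.201). Its value at day 8 against sorted ES cells, 0.39 ± 0.15 (adjusted p = 0.0398), was lost without any of 7 of the 12 arrays and was lowest, at 0.25, without day 8 replicate 2, whose signal was 574.

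Acvr2b, the other type II receptor, had 1010.2, 1087 and 1201 in sorted ES cells, 1128, 1421 and 1956 on gelatin and 1083, 1182 and 2522 at day 4. The high end of day 4 came from replicates 6 and 7, at 2041 and 2522, while the other 5 arrays reached 1232 at most. With 1577, 1738 and 2088 at day 8 and 1558, 1777 and 2626 at day 14, both late groups lay above every sorted array. Acvr2b was higher than in sorted ES cells by 0.70 ± 0.17 (adjusted p = 0.00241) at day 8 and 0.76 ± 0.17 (adjusted p = 0.000694) at day 14. Against gelatin it did not pass, 0.30 ± 0.17 (adjusted p = 0.172) and 0.36 ± 0.17 (adjusted p = 0.101), but both did without gelatin replicates 3, 4 and 6, at 0.56 (adjusted p = 0.0361) and 0.62 (adjusted p = 0.0208). Leaving out gelatin replicate 4 alone gave 0.44 (adjusted p = 0.0462) at day 14. The step from day 4 to day 8, 0.35 ± 0.17 (adjusted p = 0.139), passed without day 4 replicates 6 and 7, 0.63 (adjusted p = 0.000288), and without either of them. Gelatin against sorted, 0.40 ± 0.17 (adjusted p = 0.067), passed without gelatin replicate 1, 0.48 (adjusted p = 0.0397), or replicate 2, 0.46 (adjusted p = 0.0468), and was 0.14 (adjusted p = 0.659) without replicates 3, 4 and 6.

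Smad2, the gene of the intracellular transducer, had the largest standard errors of the 10 genes. Its lowest, median and highest signals were 607, 1657 and 2053 in sorted ES cells and 1369, 1894 and 2441 on gelatin. In EBs they were 1263, 2849 and 3227 on day 4, 1652, 1897 and 3005 on day 8 and 2056, 2903 and 3412 on day 14. Sorted replicate 5 was the lowest array, and day 14 lay above all sorted arrays by a narrow margin, 2056 against 2053. Over all probe sets sorted replicate 5 also had the lowest mean correlation with the rest of its group, 0.983. The other sorted arrays had 0.991 to 0.993. The difference of day 14 from sorted ES cells was 0.95 ± 0.27 (adjusted p = 0.0046). That of day 4, 0.70 ± 0.26 (adjusted p = 0.0496), was at the threshold and was lost when any of 9 of the 13 arrays was left out. Its lowest value, 0.45 (adjusted p = 0.174), was without sorted replicate 5. Without day 4 replicates 6 and 7 it was 1.03 (adjusted p = 0.00205), and day 4 against gelatin moved from 0.29 ± 0.26 (adjusted p = 0.472) to 0.62 (adjusted p = 0.0645). With all arrays no EB group passed against gelatin, with 0.54 ± 0.27 (adjusted p = 0.106) at day 14. Day 4 replicates 6 and 7, at 1263 and 1306, lay far below the other day 4 arrays, gelatin replicates 3, 4 and 6 lay below the other gelatin arrays, and day 8 replicates 2 and 4 lay above the other day 8 arrays.

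Skil encodes SnoN, a corepressor that binds SMAD proteins and is itself induced by their signalling. Its signals were 411, 518 and 564 in sorted ES cells (lowest, median and highest) and 803, 959 and 1173 on gelatin, where every array was above every sorted one. At day 4 they were 469.5, 1094 and 1412. Replicates 1 to 5 were at 1029.7 to 1412 and replicates 6 and 7 at 469.5 and 527, within the range of the sorted arrays. Day 8, at 433, 463 and 544, and day 14, at 456, 509 and 595, overlapped the sorted arrays. Against gelatin it was lower at both, -1.02 ± 0.20 (adjusted p = 0.000134) and -0.88 ± 0.20 (adjusted p = 0.000528). Skil was higher on gelatin than in sorted ES cells by 0.94 ± 0.20 (adjusted p = 0.000383) and at day 4 than in sorted ES cells by 0.89 ± 0.19 (adjusted p = 0.00101). It fell from day 4 to day 8, -0.97 ± 0.19 (adjusted p = 0.000383), and did not pass from day 8 to day 14, 0.13 ± 0.20 (adjusted p = 0.66). Day 4 against gelatin was -0.04 ± 0.19 (adjusted p = 0.93), and without day 4 replicates 6 and 7 the sign turned and the value passed, 0.32 (adjusted p = 0.0376). The probe set, 94752_s_at, carries a suffix for probes shared by several transcripts.

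Counted over the 10 genes, the comparisons differed in direction. On gelatin against sorted ES cells 4 members were higher (Nodal, Lefty1, Acvr2a and Skil), beside 23.3% of the 8251 genes, and 1 was lower (Cer1), beside 18.4%. The members' median difference was 0.38 and that of all genes 0. Without gelatin replicates 3, 4 and 6 the count was 3 in place of 5. At day 4 against sorted ES cells 3 were higher (Lefty1, Smad2 and Skil), beside 12.1%, and 1 was lower (Cer1), beside 14.0%, with medians of 0.25 over the members and -0.02 over all genes. Against gelatin, 1 was higher at day 4 (Lefty1), beside 8.33%, and 0 were lower in the limma test, beside 17.8%. At an unadjusted p under 0.05 that comparison had 2 higher and 1 lower. The members' median there was -0.05, and that of all genes -0.02.

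At day 8 the calls were mostly downward against gelatin and day 4. Against gelatin ES cells 6 were lower (Nodal, Gdf3, Tdgf1, Lefty1, Acvr2a and Skil), beside 26.2% of all genes, and 2 were higher (Cer1 and Acvr1b), beside 18.7%. The same 6 genes were lower at day 8 than at day 4, beside 13.0%, and Cer1 was higher, beside 13.6%. The median over the members was -0.44 in both, and -0.02 and 0.00 over all genes. Against sorted ES cells the day 8 count was 2 lower (Gdf3 and Tdgf1), beside 19.4%, and 2 higher (Cer1 and Acvr2b), beside 16.9%, with medians of -0.02 for the members and for all genes. The comparisons with day 8 share the day 8 arrays, and those with one day-0 group share its arrays.

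At day 14, 5 members were lower than on gelatin (Nodal, Gdf3, Tdgf1, Lefty1 and Skil), beside 24.1%, and 2 were higher (Cer1 and Acvr1b), beside 22.8%. Against sorted ES cells 4 were lower (Nodal, Gdf3, Tdgf1 and Lefty1), beside 24.4%, and 4 higher (Cer1, Acvr2a, Acvr2b and Smad2), beside 27.0%. From day 8 to day 14 the same 4 ligand, coreceptor and inhibitor genes fell, beside 13.0%, and Acvr2a rose, beside 21.1%. The members' medians in these 3 comparisons were -0.50, 0.10 and 0.04, and those of all genes 0.00, 0.00 and 0.03.

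The arrays that stood apart also split the members. Day 4 replicates 6 and 7 did not overlap the other day 4 arrays for 7 of the 10 genes: Gdf3, Tdgf1, Acvr2a, Smad2 and Skil were lower in them and Acvr1b and Acvr2b higher. Over all genes 40.4% did not overlap in this way. Nodal, Lefty1 and Cer1 overlapped. Day 8 replicates 2 and 4 did not overlap the other day 8 arrays for 5 genes, with Gdf3 and Tdgf1 lower and Acvr2a, Smad2 and Skil higher, beside 43.2% of all genes. Gelatin replicates 3, 4 and 6 did not overlap the other gelatin arrays for 6, with Nodal and Acvr2b higher and Acvr1b, Acvr2a, Smad2 and Skil lower, beside 32.8%. These subsets were seen in the data and are not groups of the study, so no test was made between them.

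**Figure D4:**
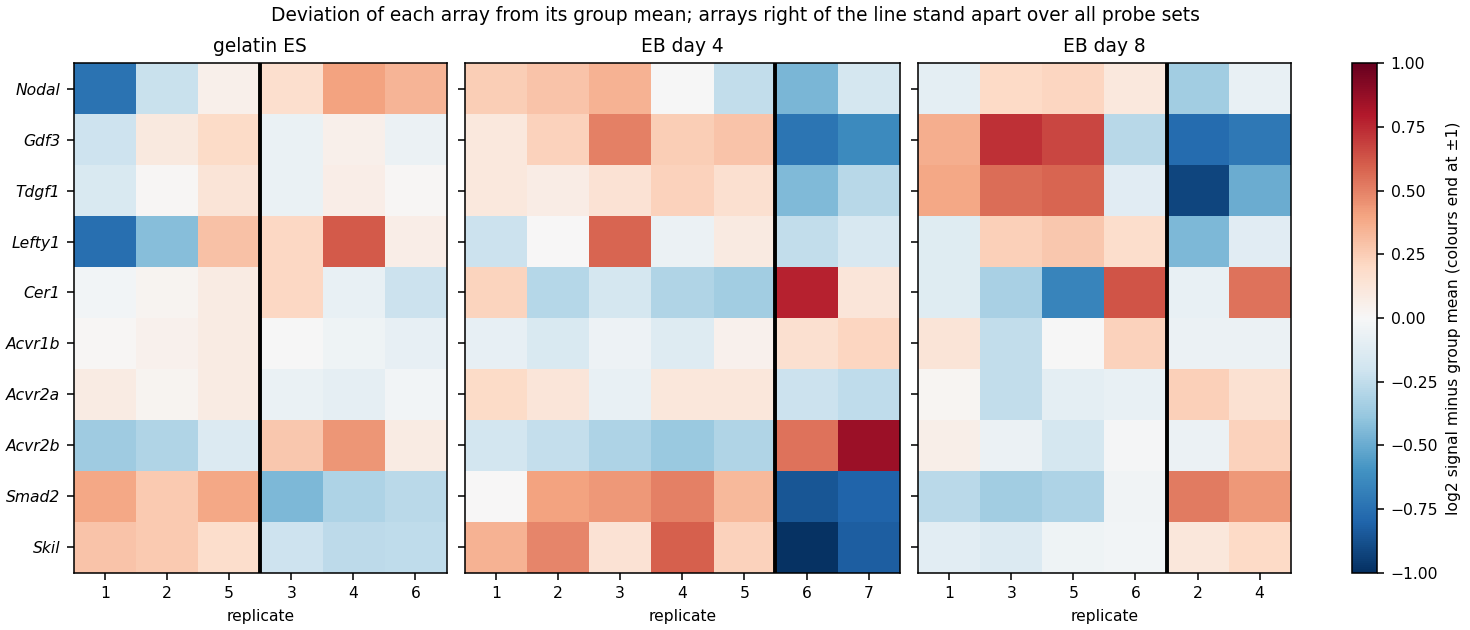
Log2 signal of the 10 genes in each gelatin, day 4 and day 8 array minus the mean of its group (colour scale, red above and blue below the mean, ending at 1 in either direction); columns are arrays by replicate number, with those that stood apart right of the black line. Day 4 replicates 6 and 7 are blue for Gdf3, Tdgf1, Acvr2a, Smad2 and Skil and red for Acvr1b and Acvr2b.

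Other genes of the pathway were counted from lists of its parts. Of 16 measured ligand, protease and extracellular inhibitor genes, 7 were higher and 5 lower on gelatin than in sorted ES cells, beside 23.3% and 18.4% of all genes. Inhba, the activin A subunit, had a mean signal of 4501 ± 2407 (SD, n = 6) on gelatin and 1168 ± 162 (n = 6) in sorted ES cells, a difference of 1.79 ± 0.23 (adjusted p = 6.04e-07). At day 4 it was lower than on gelatin, -1.68 ± 0.22 (adjusted p = 2.03e-06), and it did not pass against sorted ES cells in any EB group. Follistatin (Fst), which binds activins, was higher on gelatin than in sorted ES cells by 1.25 ± 0.22 (adjusted p = 6.15e-05) and lower at day 4 than on gelatin, -1.25 ± 0.22 (adjusted p = 7.22e-05), but it rose again from day 8 to day 14 by 0.79 ± 0.22 (adjusted p = 0.00832). Ltbp1, a matrix protein that holds latent TGF beta, was higher on gelatin than in sorted ES cells by 1.13 ± 0.13 (adjusted p = 9.32e-08) and lower at day 4 than on gelatin, -1.48 ± 0.13 (adjusted p = 8.33e-10). The follistatin-like gene Fstl1 was higher on gelatin by 0.67 ± 0.26 (adjusted p = 0.0437) and lower at day 4 than on gelatin, -1.22 ± 0.25 (adjusted p = 0.000684). Against gelatin, 0 of the 16 were higher at day 4 in the limma test (0 also at an unadjusted p under 0.05) and 7 were lower, beside 8.33% and 17.8% of all genes. At day 8 the count was 2 higher (Cfc1 and Tgfb1) and 7 lower, beside 18.7% and 26.2%, and at day 14 it was 1 higher (Cfc1) and 4 lower, beside 22.8% and 24.1%. Cfc1, the gene of Cryptic, a coreceptor related to Cripto, was named for these counts after its values were seen. The fibroblast and feeder sums given above were higher on gelatin than in sorted ES cells in the same way, and their part in these 4 genes was not tested.

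Among 8 other receptor genes of the family, 5 were higher and 1 lower (Eng) in day 14 EBs against sorted ES cells, beside 27.0% and 24.4% of all genes. Against gelatin 2 were higher (Acvr1 and Bmpr1a) and 1 lower (Eng), beside 22.8% and 24.1%. Bmpr1a, a type I receptor for bone morphogenetic proteins (BMPs), was higher at day 14 than in sorted ES cells by 1.12 ± 0.18 (adjusted p = 1.13e-05). Acvr1, another type I receptor, rose from day 4 to day 8, 0.23 ± 0.06 (adjusted p = 0.00497), and from day 8 to day 14, 0.20 ± 0.06 (adjusted p = 0.0129). Tgfbr1, the type I receptor for TGF beta, was lower at day 8 than on gelatin, -0.47 ± 0.10 (adjusted p = 0.000334), and rose to day 14, 0.56 ± 0.10 (adjusted p = 0.000106). The endoglin gene Eng, a TGF beta coreceptor of endothelial cells, was lower at day 14 than on gelatin, -1.49 ± 0.13 (adjusted p = 3.2e-10).

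Of 15 measured SMADs and partners, 5 were higher and 4 lower in day 14 EBs against sorted ES cells, beside 27.0% and 24.4% of all genes. Against gelatin 3 were higher and 5 lower, beside 22.8% and 24.1%. All 4 shares were near those of all genes. Smad1, a transducer of BMP signals rather than of Nodal, was higher at day 8 than at day 4, 1.05 ± 0.16 (adjusted p = 1.76e-05), and at day 14 than in sorted ES cells, 1.88 ± 0.16 (adjusted p = 3.81e-10). Smad4, the partner shared by both branches, rose from day 8 to day 14, 0.65 ± 0.10 (adjusted p = 1.96e-05). The ubiquitin ligase gene Nedd4l, whose product acts on activated SMAD2 and SMAD3, was lower at day 4 than on gelatin, -0.83 ± 0.08 (adjusted p = 3.61e-09), and Wwp2, another ubiquitin ligase gene, was lower at day 14 than on gelatin, -0.72 ± 0.11 (adjusted p = 3.99e-06).

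Target genes of mesoderm and endoderm induction, 12 of which were measured, had most of their calls upward at day 8 and day 14. Against sorted ES cells 0 passed at day 4 in the limma test (1 higher and 0 lower at an unadjusted p under 0.05), beside 12.1% of all genes higher and 14.0% lower. At day 8, 7 were higher and 0 lower (1 lower at an unadjusted p under 0.05), beside 16.9% and 19.4%, and at day 14, 6 were higher and 1 lower (Gsc), beside 27.0% and 24.4%. Against gelatin 1 was higher and 2 were lower at day 4, near the shares of 8.33% and 17.8% over all genes. At day 8 the count against gelatin was 8 higher and 0 lower (0 lower also unadjusted), beside 18.7% and 26.2%, and at day 14 it was 7 higher and 1 lower (Gsc), beside 22.8% and 24.1%. Gsc, a homeobox gene of the organizer, was named after its values were seen. Of the transcription factor genes named here, Sox17 was higher at day 8 than at day 4 by 0.69 ± 0.09 (adjusted p = 4.79e-06), Hhex by 0.73 ± 0.07 (adjusted p = 5.51e-08), Foxa2 by 0.47 ± 0.07 (adjusted p = 1.92e-05) and Eomes by 0.40 ± 0.07 (adjusted p = 4.92e-05). Hhex then fell from day 8 to day 14, -0.23 ± 0.08 (adjusted p = 0.0256), while Foxa2 rose further, 0.40 ± 0.07 (adjusted p = 0.000182). Sox17 and Foxa2 are also on the visceral endoderm list, whose summed signal was higher in the same groups. Several others are on the primitive streak and early mesoderm list. T and Mixl1, both primitive streak genes on the list, were not measured here by a probe set with 1 symbol.

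The genes whose log2 signal ran most like each member's were sought among the brightest 60% of probe sets by Pearson correlation over the 31 arrays. These values describe arrays that share groups and normalization, and no p-value was computed. Nodal ran with the mitochondrial ribosomal protein genes Mrpl12 (0.95) and Mrps25 (0.95) and with Epb41l4a (0.95). Gdf3 ran with Nhp2 (0.97), which encodes a small nucleolar ribonucleoprotein, Dppa4 (0.97), a gene of pluripotent cells, and Mkrn1 (0.96). Tdgf1 was nearest to Dppa4 (0.96), Gdf3 (0.95) and Dppa2 (0.95). Lefty1 had Orc2 (0.92), a subunit of the replication origin complex, Dtd1 (0.91) and Ttc27 (0.88) as its nearest genes. For Cer1 they were Herpud1 (0.90), Gpc3 (0.90), a cell-surface proteoglycan gene, and Tfpi (0.90), an inhibitor of coagulation. Acvr1b was less closely matched (Cpne6, Zcchc3 and Spock2, 0.81 to 0.85), Acvr2a was nearest to the cyclin gene Ccnd1 (0.91), Slc6a15 (0.90) and Fam13b (0.90), and Acvr2b to Sox4 (0.89), Slc2a3 (0.88) and Noct (0.86). Smad2 ran with Zfand5 (0.91), Ndufa9 (0.91) and Vps35 (0.90), and Skil with Crcp (0.93), Snx5 (0.92) and Ggct (0.91).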

How the data were processed

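Per the methods, RNA was amplified in 2 rounds, labelled with biotin and hybridized to MgU74Av2 arrays. The deposited values are intensity on a linear scale, which the authors normalized and modelled at the probe level with dChip (version and model not given in the sources used here). The methods list 12 days where the labels give 14, and the labels were followed. Of 12488 probe sets, 66 controls were left out. Of the other 12422, 10833 carried 1 gene symbol, 396 several and 1193 none, and a gene was read from its 1-symbol probe set with the highest mean.

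Values under the 5th percentile (59.6) were raised to it, which touched 0 of 403 values of the members, and log2 transformed. The 5 group means were fitted together over all 31 arrays in limma 3.58.1 (R 4.3.3; lmFit, eBayes with a variance trend) for 9 comparisons, and it was tested on simulated data. Replicate numbers were not used as pairs, since deviations of same-numbered arrays correlated between -0.351 and 0.494. Named besides the members were, for each pathway list, up to 4 passing genes with the largest differences of EBs from day 0, and the 3 genes most like each member. Members and lists were chosen with earlier results of these data known. Alternatives changed the normalization, floor, dim probe sets, arrays, weights, variance trend, block and probe-set averaging. Leaving out arrays that stood apart was chosen after seeing the data. The number of arrays limits precision. Promoter sequences are from RefSeq (GRCm38.p6). Plots were drawn in matplotlib 3.10.9.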

Additional observations from a re-analysis of the deposited data

Results flagged for a closer look

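Among 65 sets of values (13 probe sets in 5 groups), 2 had an array far from the rest of its group. Chance alone gives about 1 in 20, so 2 of 65 are no more than chance would give. Lefty1 in day 4 replicate 3 was at 7635, with the next day 4 array at 5443. Cer1 in sorted replicate 4 was at 381, with the next sorted array at 300.1. The cause of either was not tested.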

How the results depend on the processing

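The count of members that passed depended most on the setting at day 4 against gelatin, where it was 1. It was 2 after quantile normalization, median centring or array weights and without day 4 replicates 6 and 7, and 0 with only the 2 groups in the fit (limma, with Lefty1 at an adjusted p of 0.0719). Leaving out 1 array at a time gave 1 to 2. At day 4 against sorted ES cells it was 2 in place of 4 with the floor at the 25th percentile, and on gelatin against sorted ES cells 3 in place of 5 without gelatin replicates 3, 4 and 6. Skil at day 4 against gelatin turned from -0.04 to 0.32 without day 4 replicates 6 and 7. The cause was not tested.

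Of single values, with 117 per setting, 3 lost their call after quantile normalization (Lefty1 on gelatin against sorted, 0.31, and at day 8 against gelatin, -0.31, and Acvr2a at day 14 against sorted, 0.13), 1 after median centring, 4 with the higher floor and 8 with only the 2 groups fitted. None were lost with the floor at the 1st percentile. Acvr1b on gelatin against sorted passed after quantile normalization (-0.18) or median centring (-0.19). With the replicate number as a block, no call was lost and 4 were gained, among them Acvr2b on gelatin against sorted (0.40, adjusted p = 0.0429), and the counts over the 9 comparisons were 6, 5, 4, 8, 1, 8, 7, 8 and 5. Leaving out dim probe sets removed 3 of the 13, Cer1's among them, and changed no call among the other 90 values. Without 1 array, 26 of 1443 values lost their call and 14 gained one, and the lost ones were Lefty1 and Smad2 values and those of the second probe sets of Lefty1 and Acvr2a. Cer1 was dim on gelatin and at day 4 (lowest signals 133 and 145), though above the floor of 59.6. Its lower levels there against sorted ES cells did not pass with the higher floor, which limits what they can show.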
